A study of Caenorhabditis elegans with 12 samples.

Results

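The UDP-glycosyltransferases of Caenorhabditis elegans are the 67 genes whose WormBase symbol starts with ugt-, out of 46778 genes in the count files. They were taken by name alone, not by any measured value, and all 67 were matched by gene identifier and annotated as protein coding. UDP-glycosyltransferases are enzymes of the endoplasmic reticulum membrane that move a sugar from a nucleotide sugar, mostly UDP-glucose in nematodes, onto small fat-soluble molecules. The product is more soluble in water and can be exported, which makes these enzymes a conjugation step of detoxification, next to glutathione S-transferases and after oxidation by cytochrome P450s. In worms the intestine is the main site of this chemistry, and the pathway is known to respond to foreign compounds, to lipophilic products of metabolism and to the insulin-like receptor DAF-2.

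The study measured RNA in whole adult worms in 12 libraries, which were 3 biological repeats of each of 4 groups. The daf-2 animals were strain CF1041, which carries the reduction-of-function allele daf-2(e1370) of the insulin/IGF-1 receptor, and were collected on day 9 and on day 1 of adulthood. The wild-type (WT) animals were strain N2, collected at the same ages. All 4 groups ate OP50 bacteria and were kept from the last larval or young adult stage on 50 µM FUdR, a drug that blocks DNA synthesis and so prevents progeny, so every comparison is between FUdR-treated animals. Each genotype was represented by 1 strain, and whole worms were used, so the tissue in which a gene was read is not known.

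Library totals ran between 20322128 and 47447136 counts. Of the 67 members, 63 passed the filter on low counts and were tested among 15523 genes. The other 4 were ugt-35, ugt-38, ugt-42 and ugt-67, with 8, 67, 17 and 28 counts over all 12 libraries. Levels are given in CPM, the counts per 1000000 counts of the library, scaled by the trimmed mean of M-values, and levels of different genes are compared per kilobase of exon. A gene is called higher or lower where its adjusted p (edgeR's quasi-likelihood test, Benjamini-Hochberg over all 15523 genes) was under 0.05. The markers of intestine, hypodermis, body wall muscle, neurons, germ line, excretory cell and pharynx were all detected in all 4 groups, none being at 0 in any group.

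The family was widely but unevenly read. A count was present in all 12 libraries for 61 of the 67 members, and no member was without a count. The mean over the 12 libraries was over 10 CPM for 28 members, between 1 and 10 CPM for 25 and under 1 CPM for 14. The 6 members with the highest mean CPM held 44.3% of the family's total, and the median of the 63 tested members was 4.59 CPM per kilobase. Coding sequences ran between 1449 and 1674 bp with a median of 1590 bp, or 483 to 558 codons, so the members differed far more in level than in size. The plot of all tested members by library shows blocks of genes that were low at day 9 in both genotypes, and a smaller block that was high in the WT day 9 libraries.

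**Figure D1:**
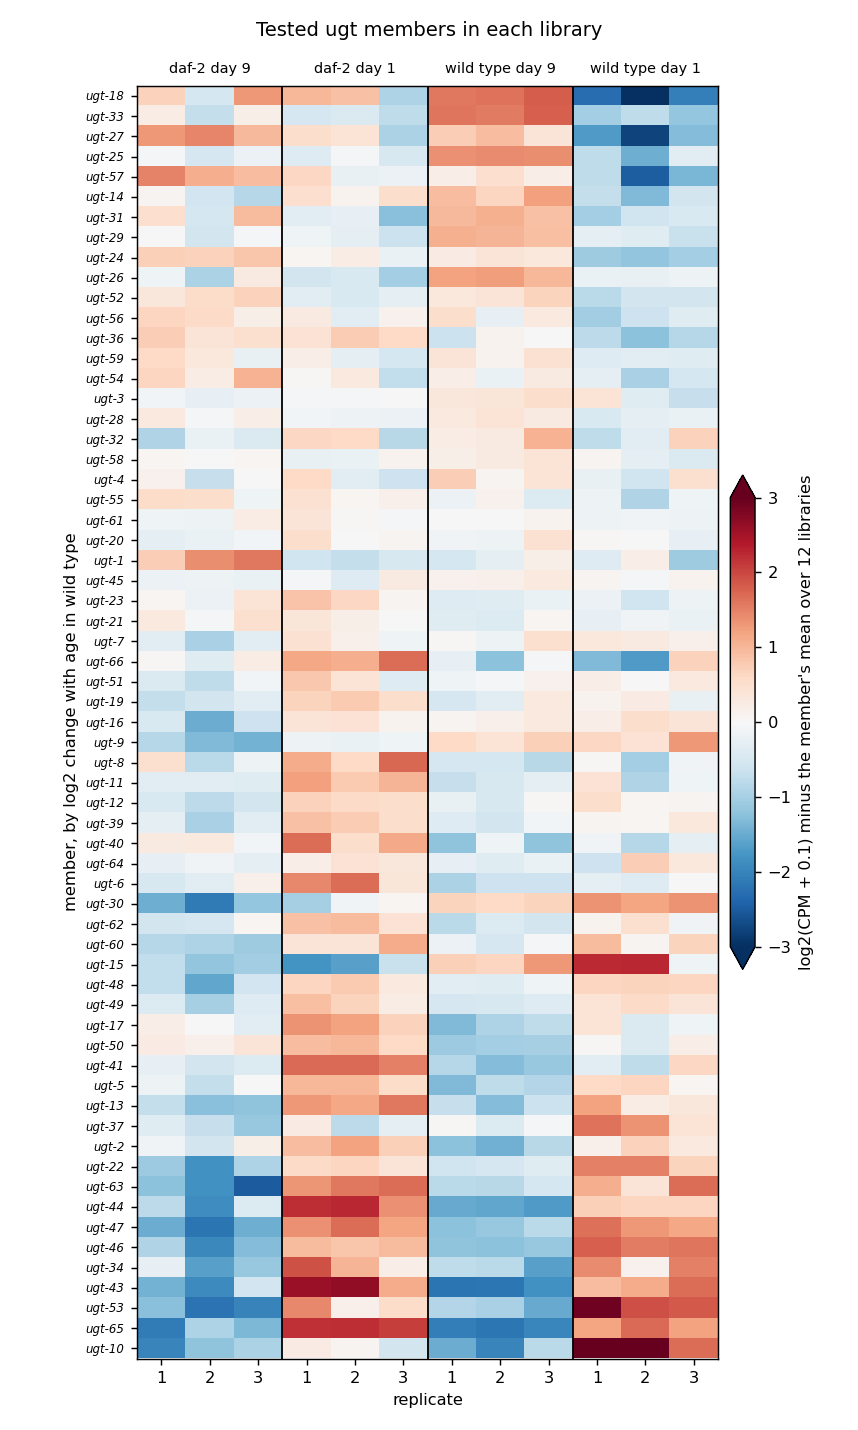
Level of each of the 63 tested members (rows) in each of the 12 libraries (columns, with daf-2 to the left of WT and day 9 to the left of day 1), as log2(CPM + 0.1) minus that member's mean over the 12 libraries, with colours capped at 3 in either direction. A reader should see more members below their mean in the daf-2 day 9 libraries, where 33 members were called lower than in daf-2 day 1, than members above it, where 6 were called higher.

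The members with the highest mean level per kilobase in each group are given next. In daf-2 at day 9, ugt-31 came first with 48.7 ± 22.5 CPM per kilobase, and ugt-26 followed with 39.8 ± 15.7 CPM per kilobase (SD, n = 3), a gap within their spread. In daf-2 at day 1, ugt-44 led with 169 ± 51.9 CPM per kilobase, well above ugt-62 with 46.1 ± 8.68 CPM per kilobase. In WT at day 9, ugt-26 led with 101 ± 9.19 CPM per kilobase, ahead of ugt-31 with 70.5 ± 4.52 CPM per kilobase. In WT at day 1, ugt-22 with 75.3 ± 22.5 CPM per kilobase and ugt-44 with 67.1 ± 2.00 CPM per kilobase did not differ beyond their spread.

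Averaged over the 12 libraries, the 6 highest members per kilobase were ugt-44, ugt-26, ugt-31, ugt-22, ugt-29 and ugt-48. The gene ugt-44 (chromosome IV, 10469741 to 10471899) had 44.6, 20.9 and 57.5 CPM in daf-2 at day 9, 355, 367 and 198 CPM in daf-2 at day 1, 26.9, 25.8 and 23.5 CPM in WT at day 9, and 126, 119.3 and 121 CPM in WT at day 1. All day 9 libraries lay below all day 1 libraries, and the daf-2 day 1 libraries lay above all others, with replicate 3 the lowest of them. The log2 change of ugt-44 at day 9 against day 1 was -2.90 ± 0.32 (SE) in daf-2, with an adjusted p of 2.57e-05, and -2.26 ± 0.31 in WT, with an adjusted p of 8.50e-05. The gene ugt-48 (V, 5545669 to 5548062), which shares exon bases with the neighbouring gene cft-1, had 26.5, 15.04 and 29.9 CPM in daf-2 at day 9, 70.1, 76.4 and 54.9 CPM in daf-2 at day 1, 35.7, 34.4 and 40.5 CPM in WT at day 9, and 69.2, 70.8 and 69.4 CPM in WT at day 1. It was lower at day 9 in both genotypes and was called in neither genotype comparison. The gene ugt-22 (IV, 13639260 to 13644567), which shares exon bases with srz-29, had 32.0, 19.3 and 35.7 CPM in daf-2 at day 9, 102, 106 and 89.0 CPM in daf-2 at day 1, 45.1, 48.3 and 52.7 CPM in WT at day 9, and 196, 196 and 109 CPM in WT at day 1.

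**Figure D2:**
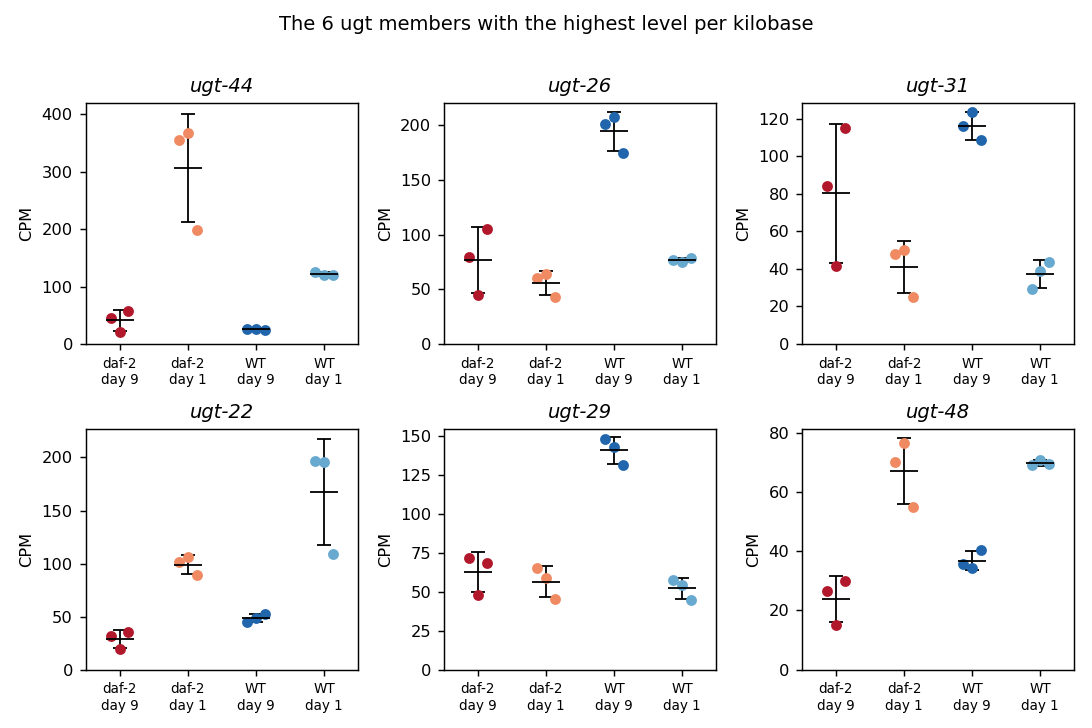
Levels in CPM (y axis) of the 6 members with the highest mean per kilobase in the 4 groups (x axis), with 1 point per library and the group mean. The members ugt-44, ugt-22 and ugt-48 were lower at day 9 in both genotypes, while ugt-26 and ugt-29 were highest in the WT day 9 libraries, at 174 to 208 CPM and 132 to 148 CPM.

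The remaining 3 of these members were higher at day 9 in WT. The gene ugt-26 (I, 4721131 to 4723982) had 79.8, 45.1 and 105 CPM in daf-2 at day 9, 59.9, 63.8 and 42.9 CPM in daf-2 at day 1, 201, 208 and 174 CPM in WT at day 9, and 76.4, 75.3 and 78.9 CPM in WT at day 1. Every WT day 9 library lay above every other library, and the daf-2 ages overlapped. The gene ugt-31 (I, 2333338 to 2338693) had 84.3, 41.3 and 115 CPM in daf-2 at day 9, 47.8, 50.1 and 24.9 CPM in daf-2 at day 1, 116, 123 and 109 CPM in WT at day 9, and 29.3, 39.0 and 43.4 CPM in WT at day 1. Its daf-2 ages overlapped too, with replicate 2 of the day 9 group below 2 of the day 1 libraries.

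Summed over all members, the family reached 817 ± 165 CPM in daf-2 at day 9 and 1503 ± 239 CPM in daf-2 at day 1, against 1082 ± 13.3 CPM in WT at day 9 and 1174 ± 42.9 CPM in WT at day 1 (SD, n = 3 each). As a share of all counts, without the scaling, the sums were 0.0926 ± 0.0153% at day 9 and 0.134 ± 0.0167% at day 1 in daf-2, against 0.121 ± 0.00157% at day 9 and 0.103 ± 0.00622% at day 1 in WT. On both scales the sum was lower at day 9 than at day 1 in daf-2, higher in daf-2 than in WT at day 1, and lower in daf-2 than in WT at day 9, and the libraries of the groups did not overlap. For day 9 against day 1 in WT the direction depended on the scale: the share was higher by 0.0184 percentage points, but the difference was -0.00918 percentage points once the library sizes were scaled. Each of these exact two-sided permutation tests on the share gave p = 0.1 (adjusted over the 4 comparisons, 0.1), the smallest that 3 libraries against 3 allow. Without ugt-44 the difference in share for day 9 against day 1 in daf-2 was -0.0187 percentage points in place of -0.0412, and for daf-2 against WT at day 1 it was 0.0146 in place of 0.0310, with the groups still apart. Libraries of 1 group were not alike in the family: among the daf-2 day 9 libraries, replicate 2 was the lowest for 39 of the 63 members (61.9%, against 33.6% of all genes tested), and among the daf-2 day 1 libraries replicate 3 was the lowest for 38 (60.3%, against 34.1%). In WT, replicate 3 was the highest of the day 9 libraries for 42 members (66.7%, against 32.8%) and replicate 2 the lowest of the day 1 libraries for 32 (50.8%, against 35.4%).

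With age, WT worms showed both directions. At day 9 against day 1 in WT, 15 of the 63 tested members were called higher (23.8%, against 31.2% of all genes) and 23 lower (36.5%, against 25.6% of all genes), together 60.3%, against 56.8% of all genes. Of these 38, 28 differed by at least 2-fold, beside 4722 of the 8818 called among all genes. The median log2 change over the 63 members was -0.20, beside 0.09 over all genes. In whole animals, fewer cells of a tissue and less RNA per cell cannot be told apart. Among 12 intestine markers, 6 were called lower and 1 higher in the same comparison, with summed levels of 1440 to 1671 CPM at day 9 and 3714 to 4311 CPM at day 1. Markers of other tissues were lower too: all 8 of body wall muscle (median log2 change -2.14, summed 589 to 653 CPM at day 9 against 1899 to 3165 CPM at day 1), 4 of 7 of hypodermis (median -2.34) and 6 of 8 of germ line (median -0.76), none of these lists having a gene called higher. Of 8 neuronal markers 3 were called higher and none lower, as was 1 of 5 of pharynx, and the excretory cell list had 3 of 6 in each direction. The part of these tissues in the family's values was not tested.

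Among the members that rose in WT, the gains of 4 stood out in size. The gene ugt-18 (V, 12820260 to 12822778) had 16.5, 16.9 and 19.4 CPM at day 9 against 1.04, 0.540 and 1.23 CPM at day 1, a log2 change of 4.18 ± 0.58 (edgeR, adjusted p = 8.52e-05). The gene ugt-33 (V, 10493409 to 10496477) had 5.71, 5.48 and 6.54 CPM at day 9 against 0.833, 1.02 and 0.752 CPM at day 1, a log2 change of 2.77 ± 0.30 (edgeR, adjusted p = 1.39e-05). In both genes every day 9 library was several times above every day 1 library. The neighbouring genes ugt-27 (I, 4724065 to 4726771) and ugt-25 (I, 4731606 to 4735276) changed by 2.73 ± 0.47 and 2.18 ± 0.23 on the log2 scale. For ugt-27 the levels were 2.42, 2.76 and 1.89 CPM at day 9 against 0.364, 0.120 and 0.513 CPM at day 1. For ugt-25, which shares exon bases with mlst-8, they were 62.5, 64.5 and 63.9 CPM at day 9 against 14.1, 8.64 and 19.1 CPM at day 1. Neither gene's groups overlapped.

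Among the members that fell in WT, ugt-10 (V, 4898027 to 4900120) had the largest fitted change, -5.79 ± 0.82, and was nearly lost from the day 9 libraries, with 1, 0 and 3 counts at day 9 against 91, 65 and 34 counts at day 1 (edgeR, adjusted p = 0.000109). A noncoding RNA, T19H12.14, lies on its other strand, and reads from the pair cannot be told apart in unstranded libraries. Only the WT day 1 libraries carried ugt-10 past the filter on low counts, so the filter favoured a fall with age in WT. The gene ugt-65 (IV, 12420683 to 12432636) had 0.520, 1.298 and 0.953 CPM at day 9 against 12.1, 12.3 and 11.2 CPM at day 1 in daf-2, and 0.534, 0.498 and 0.587 CPM at day 9 against 5.99, 8.52 and 6.08 CPM at day 1 in WT. Its log2 changes were -3.63 ± 0.28 in daf-2 and -3.66 ± 0.31 in WT, and the test of their difference gave 0.03 ± 0.34 (edgeR, adjusted p = 0.975). The gene ugt-43 (IV, 10464588 to 10467297) lies beside ugt-44. In WT it had 1.89, 1.92 and 2.47 CPM at day 9 against 17.1, 19.5 and 29.1 CPM at day 1, and ugt-53 (V, 2849343 to 2852028) had 0.698, 0.651 and 0.419 CPM at day 9 against 11.04, 5.52 and 5.20 CPM at day 1. The log2 changes were -3.39 ± 0.45 for ugt-43 and -3.61 ± 0.47 for ugt-53, with no overlap between the ages in either gene.

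In daf-2, most of the members called with age were lower at day 9. At day 9 against day 1 in daf-2, 6 of the 63 members were called higher (9.52%, against 21.9% of all genes) and 33 lower (52.4%, against 21.5% of all genes), together 61.9%, against 43.3%. The median log2 change was -0.80 over the members and 0.01 over all genes, and 44 of the 63 members (69.8%) had a log2 change below 0, beside 49.4% of all genes. In the same libraries 9 of the 12 intestine markers were called lower and 1 higher, with summed levels of 607 to 1148 CPM at day 9 and 2822 to 4683 CPM at day 1. All 8 body wall muscle markers were called lower as well (median log2 change -2.65, summed 447 to 715 CPM at day 9 against 2767 to 4639 CPM at day 1). So were 4 of 7 of hypodermis (median -2.93), 2 of 8 of germ line and 2 of 5 of pharynx, and none of these 4 lists had a gene called higher. Of 8 neuronal markers 1 was called higher and none lower, and the excretory cell list had 2 of 6 in each direction. The part of these tissues in the family's values was not tested. The count of members called higher was 3 without daf-2 day 1 replicate 3, 3 without daf-2 day 9 replicate 1 and 6 with all libraries. All genes called higher numbered 2854, 2794 and 3395 in these fits.

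The member that rose most in daf-2 was ugt-1 (V, 10395663 to 10397820). It had 35.2, 55.6 and 63.3 CPM in daf-2 at day 9 and 14.1, 12.9 and 15.2 CPM in daf-2 at day 1, against 14.7, 17.2 and 23.9 CPM in WT at day 9 and 16.3, 24.5 and 10.1 CPM in WT at day 1. The daf-2 day 9 libraries lay above the other 9, and the 2 ages overlapped in WT. The log2 change was 1.87 ± 0.30 in daf-2 (edgeR, adjusted p = 0.000412) and 0.14 ± 0.30 in WT (adjusted p = 0.698). The gene ugt-27 had 3.60, 4.07 and 2.86 CPM at day 9 against 2.06, 1.90 and 0.686 CPM at day 1 in daf-2, and its call was lost without daf-2 day 1 replicate 3 (adjusted p = 0.0982) or daf-2 day 9 replicates 1 (0.0684) or 2 (0.0964). Without the first of these its log2 change was 0.78, against 1.18 ± 0.40 with all libraries. The gene ugt-57 (X, 6991727 to 6994162) had 3.32, 2.51 and 2.24 CPM at day 9 against 1.77, 0.948 and 0.986 CPM at day 1, and its call was lost without daf-2 day 1 replicates 2 (0.106) or 3 (0.109), or daf-2 day 9 replicates 1 (0.108) or 2 (0.0636). The call of ugt-31 in daf-2 (0.97 ± 0.32, edgeR, adjusted p = 0.0289) was lost without daf-2 day 1 replicate 3 (0.114) or daf-2 day 9 replicates 1 (0.0678) or 3 (0.136), and its log2 change was 0.61 without the last of these.

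The falls in daf-2 were clearer. Among members reaching 1 CPM in the higher group, the largest after ugt-65 and ugt-43 were in ugt-63 and ugt-47. The gene ugt-43 had 3.32, 2.31 and 5.99 CPM at day 9 against 54.4, 57.4 and 19.4 CPM at day 1, a log2 change of -3.49 ± 0.43 (edgeR, adjusted p = 6.50e-05). The gene ugt-63 (V, 5108180 to 5110772) had 6.11, 4.07 and 2.51 CPM at day 9 against 36.4, 43.7 and 46.6 CPM at day 1, a log2 change of -3.34 ± 0.34 (edgeR, adjusted p = 1.65e-05). In both genes every day 9 library was below every day 1 library. The gene ugt-47 (V, 10096305 to 10098597), which shares exon bases with srd-49, had 4.68, 2.83 and 4.81 CPM at day 9 against 34.5, 42.8 and 30.5 CPM at day 1, a log2 change of -3.14 ± 0.23 (edgeR, adjusted p = 1.64e-06).

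**Figure D3:**
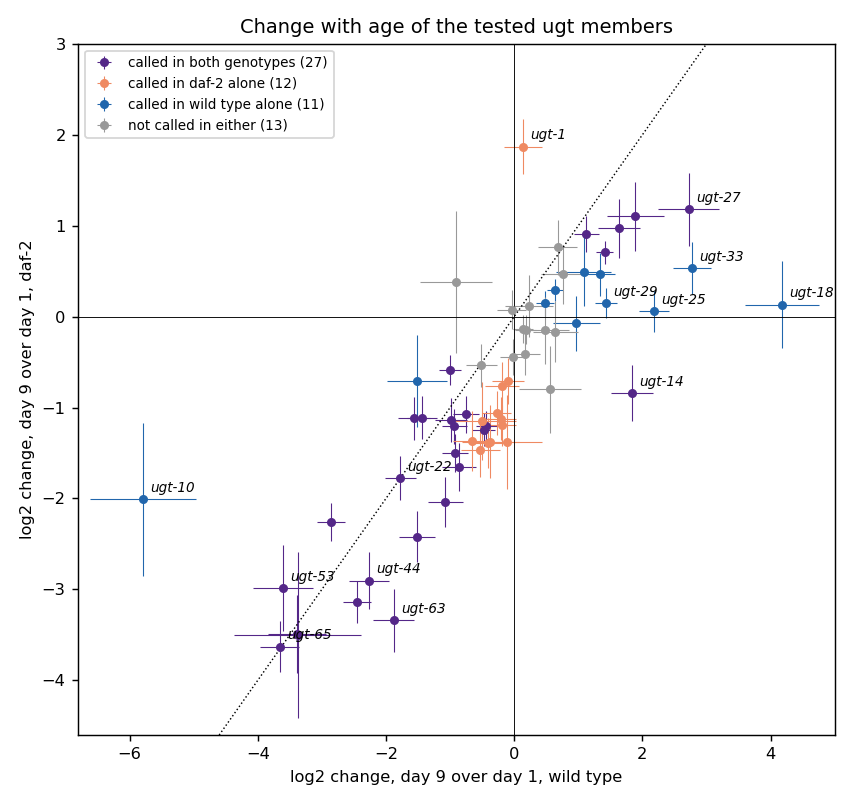
Log2 change at day 9 against day 1 for each of the 63 tested members, in WT (x axis) and in daf-2 (y axis). Point colours mark the 27 members called in both genotypes, 12 called in daf-2 and not in WT, 11 called in WT and not in daf-2, and 13 called in neither. Most points lie below the diagonal, where the change in daf-2 is the more negative, as for 50 of the 63 members.

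Side by side, the ageing comparisons, which share no library, called 5 members higher in both genotypes (ugt-24, ugt-27, ugt-31, ugt-52 and ugt-57). They called 21 lower in both: ugt-2, ugt-5, ugt-12, ugt-13, ugt-17, ugt-22, ugt-34, ugt-39, ugt-41, ugt-43, ugt-44, ugt-46, ugt-47, ugt-48, ugt-49, ugt-50, ugt-53, ugt-60, ugt-62, ugt-63 and ugt-65. Among these, ugt-41 changed by -1.07 in WT and by -0.57 without WT day 1 replicate 3. The gene ugt-34 rested on few reads. In daf-2 it had 4, 0 and 2 counts at day 9 against 26, 10 and 6 at day 1. In WT it had 2, 2 and 0 counts at day 9 against 14, 4 and 23 at day 1. Only day 1 libraries carried ugt-34 past the filter on low counts, so the filter favoured a fall with age. Called higher in WT and not in daf-2 were ugt-18, ugt-25, ugt-26, ugt-28, ugt-29, ugt-33, ugt-36, ugt-56 and ugt-58. Called lower in daf-2 and not in WT were ugt-6, ugt-7, ugt-8, ugt-9, ugt-11, ugt-16, ugt-19, ugt-30, ugt-40, ugt-51 and ugt-66. The gene ugt-1 was called higher in daf-2 and not in WT, ugt-10 and ugt-37 lower in WT and not in daf-2, and ugt-14 higher in WT and lower in daf-2. The remaining 13 members were called in neither genotype, and 11 of them (ugt-3, ugt-4, ugt-20, ugt-21, ugt-32, ugt-45, ugt-54, ugt-55, ugt-59, ugt-61 and ugt-64) in no comparison at all. How many of all genes were called alike in both genotypes, or in no comparison, was not counted, so these joint counts have no background. Taken singly, 31.2% of all genes were called higher and 25.6% lower with age in WT, and 21.9% and 21.5% in daf-2. A call in 1 genotype and not in the other is not a test of their difference, which is given further on.

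Of the 38 calls with age in WT, 32 were kept under every setting that tested them, and among these ugt-34 was not tested under the stricter filter on low counts or in the fit on the compared libraries, in either genotype. The other 6 were lost without 1 library or another: ugt-12 without WT day 1 replicate 1 (adjusted p = 0.173, with a log2 change of -0.27 in place of -0.44) or WT day 9 replicates 1 (0.0923) or 2 (0.164), ugt-37 without WT day 1 replicate 1 (0.0612) or WT day 9 replicate 2 (0.0600), and ugt-60 without the same libraries (0.0621 and 0.0626). The gene ugt-36 was lost without any 1 of the WT day 1 replicates, WT day 9 replicates 2 or 3 or replicate 3 of either daf-2 group (0.0505 to 0.126). The gene ugt-39 was lost without any 1 of the WT day 1 replicates, WT day 9 replicates 1 or 2 or daf-2 day 1 replicate 2 (0.0523 to 0.152), and ugt-56 without any 1 of 9 libraries, WT day 1 replicate 3, WT day 9 replicate 2 and daf-2 day 1 replicate 2 being the exceptions (0.0544 to 0.162). Other settings ended some of these calls too. Upper-quartile scaling ended those of ugt-39 (a log2 change of -0.31, adjusted p = 0.170) and ugt-12 (-0.27, 0.196), and DESeq2's Wald test ended those of ugt-36 (0.105) and ugt-56 (0.138). Of the 39 calls with age in daf-2, 30 were kept under every setting that tested them. Upper-quartile scaling ended those of ugt-7, ugt-14, ugt-40, ugt-51 and ugt-66 (0.0704 to 0.0967), and DESeq2's Wald test that of ugt-40 (0.0532). Beside ugt-14, ugt-27, ugt-31 and ugt-57, the calls lost were those of ugt-8 without daf-2 day 1 replicate 3 (0.0643) or day 9 replicate 2 (0.0655), and of ugt-7 without daf-2 day 1 replicates 1 or 2, daf-2 day 9 replicates 1 or 2 or WT day 9 replicate 1 (0.0506 to 0.149). The gene ugt-51 was lost without daf-2 day 1 replicates 1 (0.177, with a log2 change of -0.47 in place of -0.76) or 2 (0.0836), or daf-2 day 9 replicates 1 (0.0895) or 2 (0.131). The gene ugt-40 was lost without daf-2 day 1 replicates 1 or 3, any 1 of the daf-2 day 9 replicates, WT day 1 replicate 3 or WT day 9 replicate 1 (0.0522 to 0.191), and ugt-66 without any 1 daf-2 library or WT day 9 replicates 1 or 3 (0.0521 to 0.138).

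Young daf-2 worms carried more of many members than young WT worms. For daf-2 against WT at day 1, 15 of the 63 members were called higher (23.8%, against 10.3% of all genes) and 8 lower (12.7%, against 5.06% of all genes), together 36.5%, against 15.4%. The median log2 difference was 0.37 over the members and 0.04 over all genes, and 49 of the 63 (77.8%) lay above 0, beside 53.3% of all genes. Of the 12 intestine markers, 4 were called higher and none lower by edgeR in this comparison, and 3 of 8 neuronal markers were called higher. Other lists went the other way or were mixed. Of 8 germ line markers 2 were called lower (median log2 difference -0.55), with 1 of 7 of hypodermis and 1 of 5 of pharynx, and none higher. The excretory cell list had 1 of 6 in each direction, and no body wall muscle marker was called. The part of these tissues was not tested. The number of members called higher was 8 without daf-2 day 1 replicate 1. All genes called higher then numbered 879 of 15877, beside 1600 of 15523 with all libraries. The number of members called lower was 4 without WT day 1 replicate 1 or daf-2 day 1 replicate 2. Those fits called 1156 and 474 of all genes lower, beside 786 with all libraries. It was 5 without WT day 1 replicate 2 or daf-2 day 1 replicates 1 or 3. There 239, 248 and 1152 of all genes were called lower.

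The 15 higher at day 1 were ugt-6, ugt-8, ugt-11, ugt-14, ugt-17, ugt-18, ugt-23, ugt-24, ugt-27, ugt-36, ugt-40, ugt-41, ugt-44, ugt-50 and ugt-57, and the 8 lower were ugt-9, ugt-10, ugt-15, ugt-22, ugt-30, ugt-37, ugt-46 and ugt-53. The gene ugt-18 had 10.9, 10.1 and 2.79 CPM in daf-2 at day 1 against 1.04, 0.540 and 1.23 CPM in WT at day 1, a log2 difference of 3.03 ± 0.57 (edgeR, adjusted p = 0.00434). All 3 daf-2 libraries were above all WT libraries, though replicate 3 was far below the other 2. The gene ugt-36 (V, 7167009 to 7169281), read at a low level, had 0.990, 1.26 and 1.11 CPM in daf-2 against 0.365, 0.240 and 0.342 CPM in WT, a log2 difference of 1.80 ± 0.35 (edgeR, adjusted p = 0.00582). The gene ugt-27, with the daf-2 and WT values given above, differed by 2.12 ± 0.48, and its call was lost without daf-2 day 1 replicate 1 (adjusted p = 0.0576). The gene ugt-40 (V, 7139475 to 7141964) had 1.86, 0.790 and 1.24 CPM in daf-2 against 0.469, 0.240 and 0.410 CPM in WT, a log2 difference of 1.77 ± 0.47. Its call was lost without daf-2 day 1 replicate 1 (0.113) or WT day 1 replicates 2 (0.0943) or 3 (0.0610). At the other end, ugt-15 (V, 12827519 to 12830114) had 2, 2 and 7 counts in daf-2 against 55, 49 and 14 counts in WT, a log2 difference of -3.61 ± 0.70 (edgeR, adjusted p = 0.00537). The gene ugt-10 had 9, 6 and 4 counts in daf-2 against 91, 65 and 34 counts in WT, and ugt-30 (V, 15121724 to 15125262) had 0.990, 1.90 and 2.14 CPM in daf-2 against 5.42, 4.80 and 5.37 CPM in WT. The log2 differences were -3.48 ± 0.67 for ugt-10 and -1.63 ± 0.31 for ugt-30, and the genotypes did not overlap in these genes. Only WT libraries carried ugt-10 and ugt-15 past the filter on low counts, so the filter favoured a lower level in daf-2.

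The difference of ugt-44, the most abundant member at day 1 in daf-2, was 1.33 ± 0.30 (edgeR, adjusted p = 0.0117). Those of ugt-22 (-0.76, adjusted p = 0.0460) and ugt-37 (-1.60, adjusted p = 0.0393) passed the test narrowly. Each was lost without any 1 of the 6 day 1 libraries other than WT replicate 3, without any 1 of the 3 WT day 9 libraries, and without daf-2 day 9 replicate 1 (ugt-22) or 2 (ugt-37), with adjusted p-values up to 0.172 for ugt-22 and 0.113 for ugt-37. The call of ugt-37 rested on few reads, with 13, 4 and 8 counts in daf-2 against 30, 21 and 18 counts in WT at day 1. The genes ugt-37 and ugt-40 overlap each other in the annotation, so reads in the overlap cannot be assigned to either. Calls at day 1 were also lost for ugt-11 without daf-2 day 1 replicate 1 (0.0723) or WT day 1 replicate 3 (0.0514), and for ugt-23 without daf-2 day 1 replicate 1 (0.0694) or WT day 1 replicate 2 (0.0679). Those of ugt-8 were lost without daf-2 day 1 replicates 1 (0.0611) or 3 (0.0763) or WT day 1 replicates 2 (0.0992) or 3 (0.0538), and of ugt-57 without daf-2 day 1 replicate 1 (0.113) or WT day 1 replicates 2 (0.0745) or 3 (0.0695). Those of ugt-53 were lost without daf-2 day 1 replicates 2 (0.0819) or 3 (0.0565) or WT day 1 replicate 1 (0.0766), and of ugt-46 without daf-2 day 1 replicates 1 (0.0738) or 2 (0.0716) or any 1 of the WT day 1 replicates (0.0517 to 0.0539). Fitted on the 6 day 1 libraries alone, the calls of ugt-8, ugt-11, ugt-14, ugt-22, ugt-27, ugt-37, ugt-53 and ugt-57 were lost (edgeR, adjusted p between 0.05056 and 0.09725).

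At day 9 the balance was the other way, with fewer calls. For daf-2 against WT at day 9, 4 of the 63 members were called higher (6.35%, against 4.54% of all genes) and 9 lower (14.3%, against 6.26% of all genes), together 20.6%, against 10.8%. The median log2 difference was -0.14 over the members and 0.01 over all genes. The number called higher was 2 without WT day 9 replicate 1 or replicate 2. All genes called higher then numbered 418 and 399, beside 704 with all libraries. Of the intestine markers, 1 was called higher and 3 lower. Of 8 neuronal markers 1 was called in each direction. In body wall muscle 1 of 8 was lower, in the excretory cell 1 of 6 and in pharynx 1 of 5. No marker of hypodermis or germ line was called, and the part of these tissues was not tested.

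Higher in daf-2 at day 9 were ugt-1, with the values given above and a log2 difference of 1.47 ± 0.30 (edgeR, adjusted p = 0.00658), its neighbour ugt-2, ugt-50 and ugt-17. The gene ugt-50 (X, 12691573 to 12695652), which shares exon bases with nhr-26, had 17.1, 16.01 and 19.0 CPM in daf-2 against 6.78, 7.05 and 7.16 CPM in WT at day 9, and 27.7, 29.01 and 21.9 CPM in daf-2 against 14.8, 10.7 and 16.6 CPM in WT at day 1. Its log2 difference was 1.31 ± 0.17 at day 9 (edgeR, adjusted p = 0.000331) and 0.90 ± 0.17 at day 1 (adjusted p = 0.00433), with no overlap between genotypes at either age. The gene ugt-17 (V, 10102592 to 10104964) was also higher in daf-2 at both ages, with 15.2, 13.4 and 10.5 CPM in daf-2 against 5.22, 6.90 and 7.75 CPM in WT at day 9. Its day 9 call was lost without WT day 9 replicates 1 (adjusted p = 0.102) or 2 (0.0715), or daf-2 day 9 replicates 1 (0.0825) or 2 (0.0616). The gene ugt-2 (V, 10398801 to 10401307) had 6.47, 4.78 and 7.92 CPM in daf-2 against 2.96, 2.53 and 3.90 CPM in WT at day 9, and its call was lost without WT day 9 replicates 1 (0.0673) or 2 (0.0829), or daf-2 day 9 replicate 3 (0.0674).

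Lower in daf-2 at both ages were ugt-15, ugt-30 and ugt-9. How many of all genes were called alike at both ages was not counted. The gene ugt-30 had 0.679, 0.397 and 0.871 CPM in daf-2 against 3.33, 3.18 and 3.35 CPM in WT at day 9, a log2 difference of -2.34 ± 0.33 (edgeR, adjusted p = 0.000568). The gene ugt-9 (V, 4896048 to 4897969) had 3.64, 2.58 and 2.40 CPM in daf-2 against 10.02, 8.89 and 10.9 CPM in WT at day 9, and 5.98, 5.79 and 6.04 CPM in daf-2 against 10.3, 9.06 and 16.5 CPM in WT at day 1. Its differences were -1.80 ± 0.24 at day 9 and -1.01 ± 0.23 at day 1, and at both ages every daf-2 library was below every WT library. The day 9 difference of ugt-15, which rested on 7, 10 and 10 counts in daf-2 against 23, 23 and 35 in WT, was lost without any 1 of the 6 day 9 libraries (adjusted p between 0.0651 and 0.117). With the replicate number as a block over all 12 libraries, day 1 included, the difference of ugt-15 was -2.33 and its call was lost (edgeR, adjusted p = 0.0557). The other 6 lower at day 9 were ugt-14, ugt-16, ugt-25, ugt-26, ugt-29 and ugt-33. Of these, ugt-16 (-0.98) was lost without WT day 9 replicate 3 (0.0551), and ugt-26, with the values given above, differed by -1.34 ± 0.24 (edgeR, adjusted p = 0.00297).

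**Figure D4:**
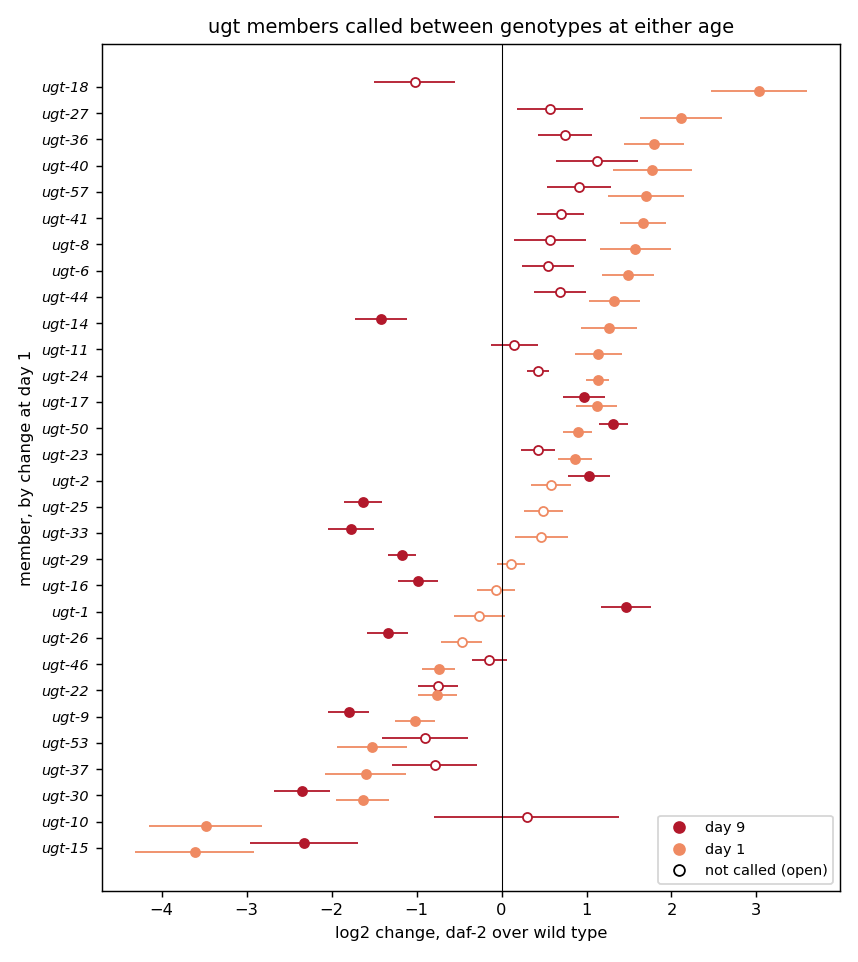
Log2 difference of daf-2 against WT at day 9 and at day 1 for the 30 members called at either age, with standard errors, filled where called. The members ugt-15, ugt-30 and ugt-9 lay below 0 and ugt-50 and ugt-17 above 0 at both ages, while ugt-14 was called on opposite sides at the 2 ages.

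The test of the difference between the genotypes' ageing changes (daf-2 change minus WT change) called 7 members (11.1%, against 5.29% of all genes), 1 higher (1.59%, against 0.573% of all genes) and 6 lower (9.52%, against 4.72% of all genes). The median over the 63 members was -0.61, beside -0.05 over all genes, and 50 of the 63 (79.4%) were negative, beside 53% of all genes. The 6 lower were ugt-18, ugt-14, ugt-33, ugt-25, ugt-29 and ugt-24, all of them genes called higher with age in WT. Among the 12 intestine markers 2 were called lower here, as was 1 of 6 excretory cell markers, and no marker of the other tissues was called.

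For ugt-18 the difference was -4.05 ± 0.74 (edgeR, adjusted p = 0.00950), with 8.75, 3.75 and 13.5 CPM in daf-2 at day 9 beside the day 1 and WT values given above. The daf-2 ages overlapped, and all 6 daf-2 libraries lay between the WT day 1 and the WT day 9 libraries. For ugt-14 (V, 4906253 to 4908304) it was -2.68 ± 0.45 (edgeR, adjusted p = 0.00605). This gene had 2.24, 1.39 and 1.12 CPM in daf-2 at day 9 and 3.01, 2.26 and 3.09 CPM in daf-2 at day 1, against 4.07, 3.33 and 5.11 CPM in WT at day 9 and 1.25, 0.780 and 1.40 CPM in WT at day 1. Within each genotype the ages did not overlap, and the higher age was day 1 in daf-2 and day 9 in WT. The test of the difference held under every setting tried, but the fall in daf-2 on its own (-0.84 ± 0.31, adjusted p = 0.0434) was lost without any 1 of daf-2 day 1 replicates 1 and 3, daf-2 day 9 replicates 2 and 3, and WT day 9 replicates 1 and 2 (0.0526 to 0.144). Likewise, the higher level at day 1 in daf-2 (1.26 ± 0.32, adjusted p = 0.0222) was lost without WT day 1 replicate 2 (0.0879) or daf-2 day 1 replicate 1 (0.0732).

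The genes ugt-33, ugt-25 and ugt-29 shared a simpler pattern, with levels in WT at day 9 above those of the other 3 groups. For ugt-33, daf-2 had 2.12, 1.06 and 2.05 CPM at day 9 against 1.24, 1.32 and 1.03 CPM at day 1, and the difference was -2.24 ± 0.41 (edgeR, adjusted p = 0.00950). For ugt-25, daf-2 had 23.4, 17.02 and 21.2 CPM at day 9 against 18.4, 23.4 and 17.4 CPM at day 1, and the difference was -2.12 ± 0.32 (edgeR, adjusted p = 0.00352). Both genes' daf-2 ages overlapped. The gene ugt-29 (V, 696524 to 699589) had 71.7, 47.9 and 68.2 CPM in daf-2 at day 9 and 65.1, 58.8 and 45.5 CPM in daf-2 at day 1, against 148, 143 and 132 CPM in WT at day 9 and 57.4, 54.7 and 44.6 CPM in WT at day 1, a difference of -1.28 ± 0.23 (edgeR, adjusted p = 0.00932). Accordingly, daf-2 was called below WT at day 9 for ugt-33 (-1.77 ± 0.27), ugt-25 (-1.63 ± 0.23) and ugt-29 (-1.17 ± 0.17), and in none of the 3 at day 1.

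The gene ugt-1 was the member with a positive difference, 1.73 ± 0.42 (edgeR, adjusted p = 0.0336). It was lost without WT day 1 replicate 2 (0.0778), WT day 9 replicates 1 (0.0805) or 2 (0.0885), daf-2 day 1 replicates 1 (0.0796) or 2 (0.0780), or daf-2 day 9 replicates 2 (0.0731) or 3 (0.0613). The gene ugt-24 (IV, 6206821 to 6210720) rose with age in both genotypes, by 0.71 ± 0.13 in daf-2 and 1.41 ± 0.13 in WT. It had 23.7, 23.2 and 25.6 CPM at day 9 against 15.1, 16.9 and 12.5 CPM at day 1 in daf-2, and 17.2, 18.9 and 17.9 CPM at day 9 against 6.82, 6.30 and 7.11 CPM at day 1 in WT, so its replicates were tight. Its difference of -0.71 ± 0.18 (edgeR, adjusted p = 0.0463) was lost without any 1 library other than daf-2 day 1 replicate 3 (up to 0.118).

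**Figure D5:**
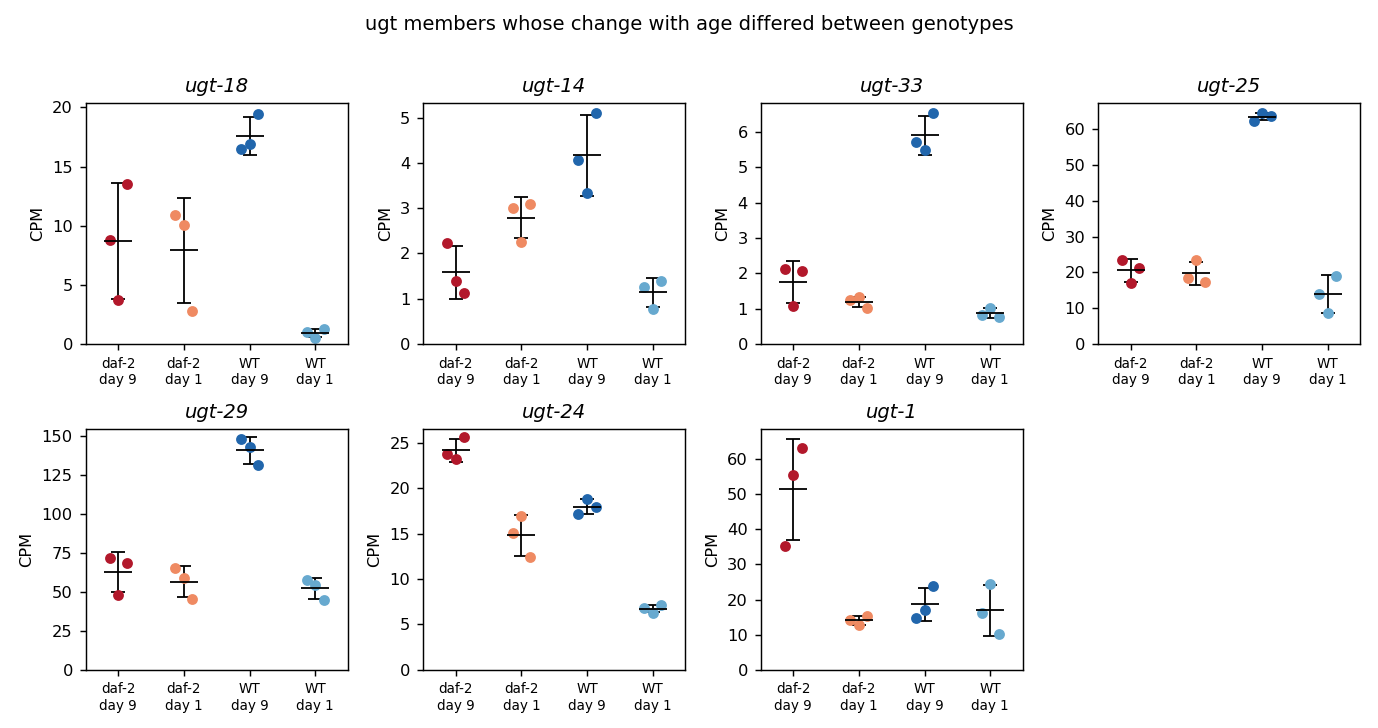
Levels in CPM (y axis, with 1 point per library and group means) of the 7 members whose change with age differed between genotypes, in daf-2 and WT at day 9 and day 1 (x axis). In ugt-33, ugt-25 and ugt-29 the WT day 9 libraries stand above all others, and in ugt-1 the daf-2 day 9 libraries do, at 35.2 to 63.3 CPM.

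The members are clustered in the genome (WBcel235), and some neighbours moved alike. Chromosome V holds 42 of the 67 members, IV holds 12, I holds 5, X holds 4, III holds 3 and II holds 1. Taking members with at most 5 other protein-coding genes between them as 1 run, 37 members lie in 11 runs and 30 lie alone. The run of ugt-26, ugt-27, ugt-28 and ugt-25 on chromosome I (4721131 to 4735276, 14.1 kb) was called higher with age in WT at all 4 members, by 0.64 to 2.73 on the log2 scale, and in daf-2 at 1 of 4. The run of 8 on chromosome V between ugt-12 and ugt-13 (4887165 to 4911399, 24.2 kb), with 7 tested, had 6 called lower and 0 higher with age in daf-2, and 3 lower and 1 higher in WT. Neighbours also parted: in that run, daf-2 at day 1 was above WT at 3 members and below it at 2. With age in daf-2, ugt-1 was called higher and its neighbour ugt-2 lower. With age in WT, neither ugt-19 nor its neighbour ugt-20 was called, and 1 of 3 in the run of ugt-18, ugt-16 and ugt-15. Of all genes, 31.2% were called higher and 25.6% lower with age in WT, and 21.9% and 21.5% in daf-2. Not all 11 runs are given here, and whether neighbours moved alike more than other genes was not tested. The 38 tested members on chromosome V had a median log2 change with age of -1.11 in daf-2, with 1 called higher and 23 lower, and the 25 on other chromosomes had a median of -0.13, with 5 called higher and 10 lower. Of all genes tested, 22.5% were called higher and 23.1% lower on chromosome V in that comparison, and 21.7% and 21.1% elsewhere. In WT the members' medians were -0.46 on chromosome V, with 6 called higher and 15 lower, and 0.14 elsewhere, with 9 called higher and 8 lower. Of all genes in WT, 1069 were called higher and 707 lower of 3079 on chromosome V (34.7% higher), and 3768 and 3259 of 12402 elsewhere (30.4% higher). Whether the members on chromosome V differed from the others was not tested. The counting of reads that match several similar members is not described in the labels, so values of close copies within a run are uncertain, as are those of the 17 members that share exon bases with another gene.

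Other steps of detoxification are given for comparison, as counts of genes called by edgeR. Of 39 tested glutathione S-transferases, which conjugate glutathione, 5 were higher and 22 lower at day 9 against day 1 in daf-2, and 6 were higher and 17 lower in WT. Of 64 tested cytochrome P450 genes, which oxidise substrates ahead of conjugation, 13 were higher and 16 lower in daf-2 with age, and 21 were higher and 16 lower in WT. Of 22 ABC transporters of the pgp and mrp families, which export conjugates and drugs, 6 were higher and 6 lower in daf-2 with age, and 13 were higher and 4 lower in WT. The median log2 change in daf-2 was -0.69 for the glutathione S-transferases, -0.08 for the P450s and 0.01 for the transporters, beside -0.80 for the UDP-glycosyltransferases. The shares of all genes to read these counts against were 21.9% higher and 21.5% lower with age in daf-2, and 31.2% and 25.6% in WT.

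At day 1, daf-2 was above WT for 9 glutathione S-transferases, 15 P450s and 4 transporters and below it for 2, 7 and 0. At day 9 it was above WT for 8, 13 and 0 of them and below it for 3, 8 and 2. Of all genes, 10.3% were above WT and 5.06% below it at day 1, and 4.54% and 6.26% at day 9. Of 6 tested genes for making and transporting UDP-sugars, 1 was called in WT with age (against 56.8% of all genes) and 1 at day 1 between genotypes (against 15.4%), and in both this was gale-1, the UDP-galactose 4-epimerase, by -0.66 with age in WT and -0.35 in daf-2 against WT. Among 20 regulators of xenobiotic and stress responses, 4 were higher and 4 lower with age in daf-2 (together 8 of 20, against 43.3% of all genes), and 7 were higher and 7 lower in WT (14 of 20, against 56.8%). The aryl hydrocarbon receptor gene ahr-1 rose by 2.93 ± 0.26 in daf-2 and 3.49 ± 0.27 in WT, and the nuclear receptor gene nhr-114 fell by 2.56 ± 0.21 in daf-2 and by 2.12 ± 0.21 in WT. The nuclear receptor gene nhr-8, known for a role in drug resistance of worms, was higher in daf-2 than in WT at day 1 by 1.69 ± 0.27 (edgeR, adjusted p = 0.00152). Those calls of ahr-1, nhr-114 and nhr-8 passed the test under all 19 other settings. Other regulator calls with age were kept too: wdr-23 (higher) and atfs-1 (lower) in both genotypes. In WT these included pqm-1, hlh-30 and cebp-1 (higher) and hsf-1 (lower), and in daf-2 elt-2 and hif-1 (lower). Between genotypes, 5 regulators were higher and 0 lower in daf-2 at day 1, and 1 was called in each direction at day 9.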

How the data were processed

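RNA of whole worms was sequenced in 12 libraries. Per the labels' protocols, total RNA was made into unstranded TruSeq libraries. Among the tools listed in the submitters' processing notes are RSEM 1.3.1, STAR 2.7.0e and DESeq2 1.22.2, with no role for each, and the build is WBcel235. The authors deposited whole-number counts per gene, not normalized. Whether these were rounded estimates, and how reads of similar genes were shared out, is not described there. Totals of 20322128 to 47447136 counts per library set the precision. The members, the gene lists and the tests were chosen with earlier results of these data known.

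Genes were kept by edgeR's filterByExpr (minimum count 10), scaled by the trimmed mean of M-values, and tested with edgeR 4.0.16 (R 4.3.3, limma 3.58.1) by the quasi-likelihood test over all 12 libraries and 4 groups, with Benjamini-Hochberg adjustment and a threshold of 0.05. Standard errors were obtained from the log2 change and its quasi-likelihood F statistic. The procedure was tested on simulated data. There only well-read genes were changed and libraries were drawn independently, so it does not cover members with few counts or paired libraries. Named in full are the 4 largest and 4 smallest called changes per comparison among members reaching 1 CPM, up to 6 interaction calls, the 6 highest members per kilobase and up to 4 members called alike in both genotypes or ages. Other members, ugt-24 among them, were named after their values were seen. Alternatives were upper-quartile and DESeq2 scaling, DESeq2 1.42.0's Wald test, no filter, a filter at 1 CPM, fits on the compared libraries, a replicate block, and leaving out each library. Deviations from group means correlated over 0.1 in all 3 same-numbered pairs only for daf-2 against WT at day 9. There r was 0.357, 0.135 and 0.577 for replicates 1, 2 and 3. Differently numbered day 9 libraries gave 0.24 (WT replicate 2 with daf-2 replicate 1), 0.198 (WT replicate 1 with daf-2 replicate 2), -0.252, -0.309, -0.451 and -0.455. Between genotypes at day 1, r was 0.227, 0.343 and -0.016 for replicates 1, 2 and 3, and -0.295 to 0.083 for differently numbered libraries. Whether the numbers mark pairs within an age is not known, and the labels do not say what a number shares. No library was paired in the main fit. The replicate block was fitted over all 12 libraries, so it is not a paired test of either age alone. P-values measure the spread between the labelled biological repeats. Gene positions are from Ensembl release 115, the same build. Promoter motifs were not searched, since no genome sequence was used here.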

Additional observations from a re-analysis of the deposited data

Results flagged for a closer look

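A change with age that differed between daf-2 and WT singles out 7 members, each by edgeR's test of the difference itself (daf-2 change minus WT change, log2). The values were -4.05 for ugt-18, -2.68 for ugt-14, -2.24 for ugt-33, -2.12 for ugt-25, -1.28 for ugt-29, -0.71 for ugt-24 and 1.73 for ugt-1. Those of ugt-18, ugt-14, ugt-33, ugt-25 and ugt-29 passed the threshold under every setting that tested them, and those of ugt-24 and ugt-1 did not. With 3 libraries per group, single libraries that stand apart within a group were not tested for.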

How the results depend on the processing

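Of 120 calls on members, 88 passed the test under every setting that tested them, 32 were lost under at least 1, and none changed direction. DESeq2's Wald test lost 3 calls, DESeq2's scaling 2, upper-quartile scaling 7, no filter 6, the stricter filter 3 of 113, and fits on the compared libraries 13 of 109. Leaving out 1 library lost 8 to 18 calls. The cause of these losses was not tested. On the compared libraries alone, members called in daf-2 at day 1 numbered 12 higher in place of 15 and 5 lower in place of 8. All genes there numbered 924 in place of 1600 and 246 in place of 786. Members called higher in daf-2 at day 9 numbered 7 in place of 4, and all genes 1150 in place of 704. DESeq2 called 2 members with a more positive change in daf-2 in place of 1, and 450 of all genes in place of 89. Leaving out each library in turn gave 3 to 8 members called higher with age in daf-2, and 8 to 17 higher and 4 to 8 lower in daf-2 at day 1. It gave 2 to 5 higher in daf-2 at day 9, and 0 to 1 with a more positive change in daf-2. Of all genes, the same fits called 2552 to 3537 higher with age in daf-2, and 879 to 2044 higher and 239 to 1156 lower in daf-2 at day 1. At day 9 they called 399 to 810 higher in daf-2, and 29 to 233 had a more positive change in daf-2. The day 9 minus day 1 difference in the family's share of counts in WT, 0.0184 percentage points, was -0.00918 with scaled library sizes. Upper-quartile scaling moved the median of all genes by 0.17 with age in WT and by 0.13 in daf-2, but the members' median relative to all genes was -0.30 in WT and -0.81 in daf-2 under both scalings. All same-numbered pairs correlated over 0.1 only between genotypes at day 9, where differently numbered libraries gave -0.455 to 0.24. In that comparison the block, fitted over all 12 libraries, ended the call of ugt-15 and no other. Between genotypes at day 1, r was 0.227, 0.343 and -0.016 for replicates 1, 2 and 3. Differently numbered day 1 libraries gave -0.295 to 0.083. Over all groups, 5 of 18 same-numbered pairs correlated over 0.1, all 5 between genotypes at the same age. With a replicate block, 13 members were higher and 23 lower with age in WT, 5 and 31 in daf-2, 19 and 7 in daf-2 at day 1, 4 and 8 at day 9, and 1 and 5 in the interaction, with 8 calls lost. Depth limits the members under 1 CPM, where a group can rest on under 10 reads.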
